A study of Bos taurus with 4 samples.

Results

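The desmosome and gap junction genes examined here are DSP, DSC2, DSC3, DSG2, JUP, PKP2, PKP3, PERP, GJA1 and GJB2, 10 genes of cell-cell junctions among the 15216 genes that carry a symbol on a bovine embryo microarray. They were chosen by gene family, and every transcript probe annotated with 1 of these symbols was taken. In all, 15 probes were found for 9 of the 10 genes. No probe on the array carried the symbol DSC3, so that gene has no value here. The array annotation gave 1 probe each for DSP, JUP, PKP2 and PKP3, 2 each for DSC2, PERP, GJA1 and GJB2, and 3 for DSG2.

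The samples were pools of 10 bovine (Bos taurus) morulae made by in vitro maturation, fertilization and culture with slaughterhouse ovaries. HG pools had spent day 0 to day 3 in synthetic oviductal fluid with 5 mM glucose, and CTL pools had spent the same days in that medium with 0.2 mM glucose. Both groups were then kept in the control medium until day 5 and were collected 120 h after fertilization. The same albumin and serum sources were recorded for both groups, and the Holstein breed was recorded for the second channel. Each of the 4 two-colour arrays held 1 HG pool against 1 CTL pool, so there were 4 HG and 4 CTL pools, with the HG pool labelled Cy5 on arrays 1 and 2, and Cy3 for the swapped arrays 3 and 4. The RNA was amplified in 2 rounds before labelling. The labels used here do not say whether the pools came from separate culture runs, and p-values therefore measure only the spread between these pools.

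Desmosomes are spot-like junctions in which the cadherins of the desmoglein and desmocollin families join neighbouring cells. Inside the cell, plakoglobin and the plakophilins connect these cadherins to desmoplakin, which anchors keratin filaments. Gap junctions are channels built from connexins, through which neighbouring cells exchange ions and small molecules. In the early mammalian embryo, gap junctional coupling is associated with compaction, and desmosomes are known from the outer epithelium, the trophectoderm, of the mouse blastocyst. GJA1, which encodes connexin 43, is also the main connexin of the cumulus and granulosa cells that surround the oocyte.

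The comparison asked whether exposure to high glucose during the first days of culture was followed by other RNA levels in the morula. All ratios below are log2 values of HG over CTL, turned by the recorded dye, so that a positive ratio means more signal in HG. A spot was called above background when its raw log2 signal was more than 2 SD over the average of the negative controls, taken per array and per channel. Between 55.5% and 58.3% of all probes passed this limit in the HG pools, and between 47.2% and 59.2% in the CTL pools. A probe was tested when it was above background on all 4 arrays in HG or on all 4 in CTL, which held for 19645 of 43794 probes. Ratios of arrays 1 and 3 ran against each other over these tested probes, with a Pearson correlation of -0.44, whereas the other array pairs had correlations between 0.04 and 0.23. The dyes follow the labels throughout, and values with array 1 or array 3 turned, or with both left out, are given for the members where they change a direction. Of 13 markers of the morula, 8 were tested (POU5F1, NANOG, TFAP2C, DPPA3, KLF4, ZSCAN4, KRT8 and KRT18), and SOX2, CDX2, GATA3, TEAD4 and CDH1 were not above background on all 4 arrays in either group. SOX2 was above background in 3 HG and 3 CTL pools, TEAD4 in 2 HG pools and 1 CTL pool, and each of the other 3 in 1 CTL pool.

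The junction genes divided into those with a tested probe and those at the limit of the array. DSP, DSG2, PKP2, PERP and GJA1 each had at least 1 tested probe, 7 probes in all, and each of these 7 was above background in all 4 HG and all 4 CTL pools. The remaining 8 probes, which include all probes of DSC2, JUP, PKP3 and GJB2, lay close to the limit or below it. No spot of the 15 member probes was marked as ignored or was at the ceiling of the scanner. The raw signal of the 8 dim probes ranged from 0.767 to 1.51 times the background limit, so those probes were not well above background at the precision of this array.

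**Figure D1:**
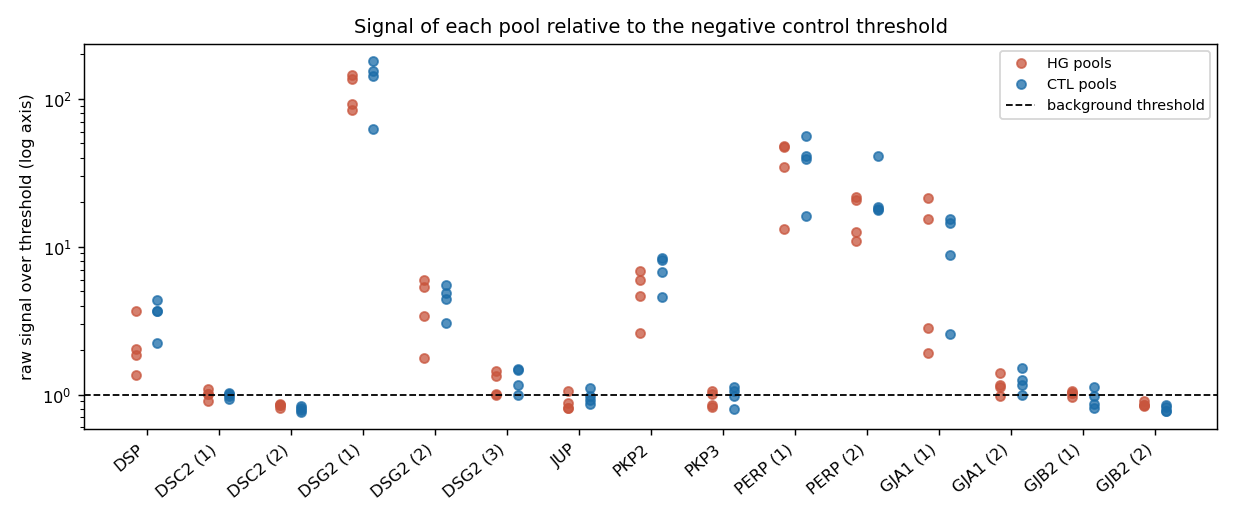
Raw signal of each of the 15 member probes divided by the background limit of its array and channel, on a log axis, with HG pools (red) left of CTL pools (blue) and 1 point per pool. DSG2 (1), (2) and (3) are EMBV3_26821, EMBV3_17891 and EMBV3_14501, and the 7 tested probes lie above the dashed limit in all 8 pools, whereas the other 8 probes scatter around or under it. Heights compare pools within a probe, not probes with each other.

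No junction gene passed the test between HG and CTL. limma with Benjamini-Hochberg adjustment called 0 of 19645 tested probes (0%), and hence 0 of the 7 member probes, at an adjusted p under 0.05. The smallest adjusted p over all probes was 0.687, and 1401 probes had an unadjusted p under 0.05, of which 651 were higher and 750 lower in HG. None of the 7 member probes was among those 1401. With 1 probe a gene, the brightest tested one, 4 of the 5 member genes had a mean ratio below 0. The mean of PERP was 0.00, just above 0 here and below 0 with median centring, with scaling between arrays, without background correction or with median pixel intensities. Over all 8712 tested genes the share below 0 was 54.2%. The median ratio was -0.17 over the 5 member genes and -0.02 over all tested genes. That member median is the mean of GJA1, and it was -0.34 without array 1 and -0.38 without array 4. Only 1 of the 7 member probes, that of PKP2, was lower in HG on all 4 arrays, against 7.31% of all tested probes, and 0 of 7 were higher on all 4 arrays, against 7.47%. In bulk pools such as these, fewer cells of a type and less RNA per cell cannot be told apart.

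**Figure D2:**
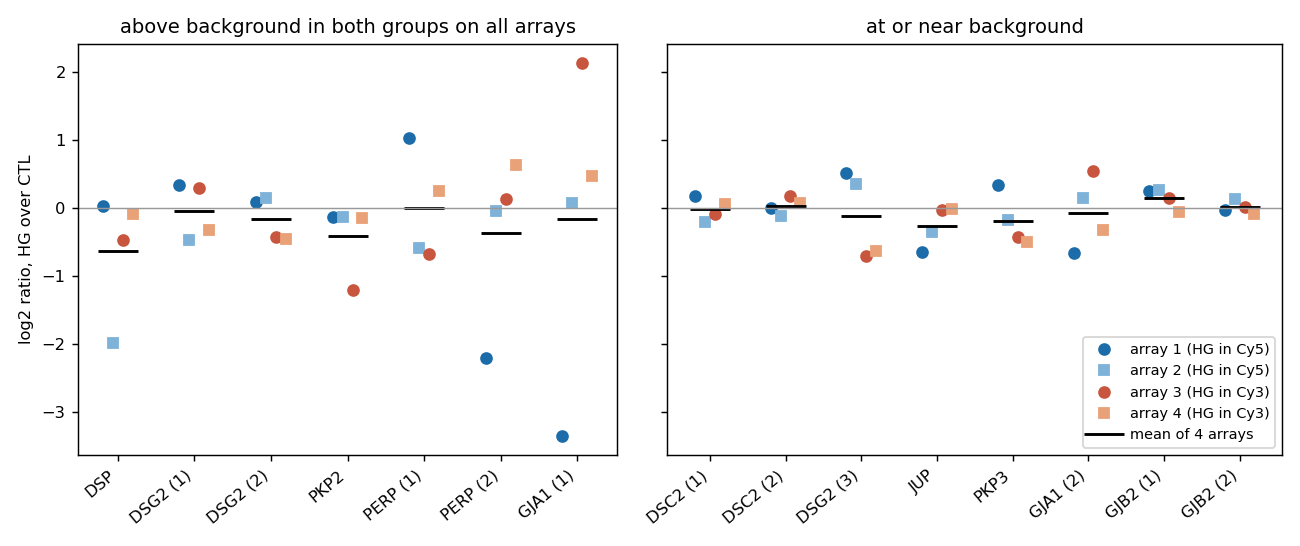
log2 ratio of HG over CTL for each member probe, with 1 point per array (circles, arrays 1 and 3; squares, arrays 2 and 4; blue, HG in Cy5; red and orange, HG in Cy3) and a black bar at the mean of the 4 arrays. Tested probes are on the left and dim probes on the right. GJA1 (1) spans -3.36 to 2.13, PERP (2) reaches -2.21 on array 1 and DSP reaches -1.98 on array 2, while most other points lie within 1 log2 unit of 0.

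Among the desmosomal cadherins, DSG2 was the only member with tested probes. DSG2 encodes desmoglein 2, the desmoglein of simple epithelia. Its probe EMBV3_26821 was far above background, at 62.3 to 179 times the limit. The log2 signals of this probe were 14.22, 14.32, 14.62 and 14.22 in the HG pools of arrays 1 to 4, against 13.88, 14.79, 14.33 and 14.55 in the CTL pools. The 8 pools lay within less than 1 log2 unit, and the CTL pools spanned both the lowest and the highest value. The ratios were 0.34, -0.47, 0.29 and -0.33, with a mean of -0.04 ± 0.41 (SD, n = 4) and a 95% interval of -0.55 to 0.46 (limma adjusted p = 0.992).

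The other tested DSG2 probe, EMBV3_17891, gave log2 signals of 9.61, 10.06, 8.31 and 9.12 in the HG pools, against 9.52, 9.91, 8.73 and 9.58 in the CTL pools. The groups overlapped, and the pools of array 3 were the lowest in both. Its ratios were 0.09, 0.15, -0.42 and -0.46, with a mean of -0.16 ± 0.33 (SD, n = 4), a 95% interval of -0.61 to 0.29 and a limma adjusted p of 0.955. The sign of this probe went with the dye: the Cy5 channel was the higher one on all 4 arrays, which held for 8.57% of all tested probes. The Cy5-over-Cy3 offset of the probe was 0.28 in limma's fit with a dye term (adjusted p = 0.630). The third probe, EMBV3_14501, was not tested, but its ratios of 0.51, 0.35, -0.70 and -0.63 were likewise positive where HG was in Cy5 and negative where HG was in Cy3. The mean of EMBV3_17891 was -0.074 without array 3 and -0.059 without array 4, and with array 3 turned it was 0.05. The bright probe and EMBV3_17891 had opposite signs on 2 of 4 arrays.

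DSC2 encodes desmocollin 2, the partner cadherin of desmoglein 2. Its probe EMBV3_29179 was above background in the HG pools of arrays 1, 3 and 4 and in the CTL pools of arrays 3 and 4, at 0.905 to 1.09 times the limit. The ratios there were 0.17, -0.21, -0.10 and 0.06. The other DSC2 probe, EMBV3_07540, was above background in none of the 8 pools, and its ratios were 0.00, -0.11, 0.18 and 0.08. In the RefSeq gene table (assembly ARS-UCD2.0), DSC2 lies between DSC1 and DSC3, and DSG2 lies beside DSG3 on the same chromosome, so these cadherin genes are neighbours in the cow. Of the neighbours, DSG3 was tested and DSC1 was not.

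PKP2, plakophilin 2, is a plaque protein that links the desmosomal cadherins to desmoplakin. The log2 signals of its single probe, EMBV3_33832, were 9.44, 10.26, 9.09 and 9.98 in the HG pools, against 9.58, 10.39, 10.29 and 10.13 in the CTL pools. On arrays 1, 2 and 4 the HG pool lay just under its CTL partner, and on array 3 it lay well under it, but the ranges of the groups overlapped. The ratios were -0.14, -0.14, -1.20 and -0.15, with a mean of -0.41 ± 0.53 (SD, n = 4) and a 95% interval of -0.996 to 0.19 (limma adjusted p = 0.824). An exact permutation test over the signs of the 4 ratios, two-sided, gave p = 0.125, which is the smallest value that 4 arrays allow. Without array 3 the mean was -0.14, and with array 3 turned it was 0.19. In the authors' deposited ratios, turned the same way, array 1 gave 0.09, so that PKP2 was lower in HG on only 3 of the 4 arrays there.

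The other plaque proteins could not be compared. JUP encodes plakoglobin, which is shared by desmosomes and adherens junctions. Its probe EMBV3_22905 was above background only on array 3, in both the HG and the CTL pool, and its ratios were -0.65, -0.36, -0.02 and -0.01. PKP3, plakophilin 3, had ratios of 0.34, -0.18, -0.43 and -0.51 at probe EMBV3_30294, which was above background in the HG pools of arrays 1 and 2 and the CTL pools of arrays 2 and 4. The scale for such values is set by the negative control spots, whose log2 ratios had an SD of 0.141 to 0.236 per array. Over the 8 dim member probes, 24 of the 32 ratios lay within the central 95% of the negative control spots of their array. The share inside was thus smaller than for the control spots, of which 95% lie there by definition.

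DSP encodes desmoplakin, which ties the plaque to keratin filaments. Its probe EMBV3_29327 had log2 signals of 9.08, 7.77, 8.58 and 8.12 in the HG pools, against 9.05, 9.75, 9.05 and 8.21 in the CTL pools. The HG pool of array 2 was the lowest of the 8 and its CTL partner the highest, while on arrays 1 and 4 the partners were almost level. The ratios were 0.03, -1.98, -0.47 and -0.09, with a mean of -0.63 ± 0.93 (SD, n = 4). This was the most negative mean among the 7 tested member probes, 1.55-fold less signal in HG, with a 95% interval of -1.55 to 0.29 and a limma adjusted p of 0.826. Array 2 set much of this value: without it the mean was -0.18. The raw signal was 1.35 to 4.36 times the background limit. The lowest value was that of the HG pool of array 2, which lay within the range of the dim probes. In the authors' deposited table the array ratios, turned to HG over CTL, were 0.19, -1.96, -0.52 and -0.08.

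**Figure D3:**
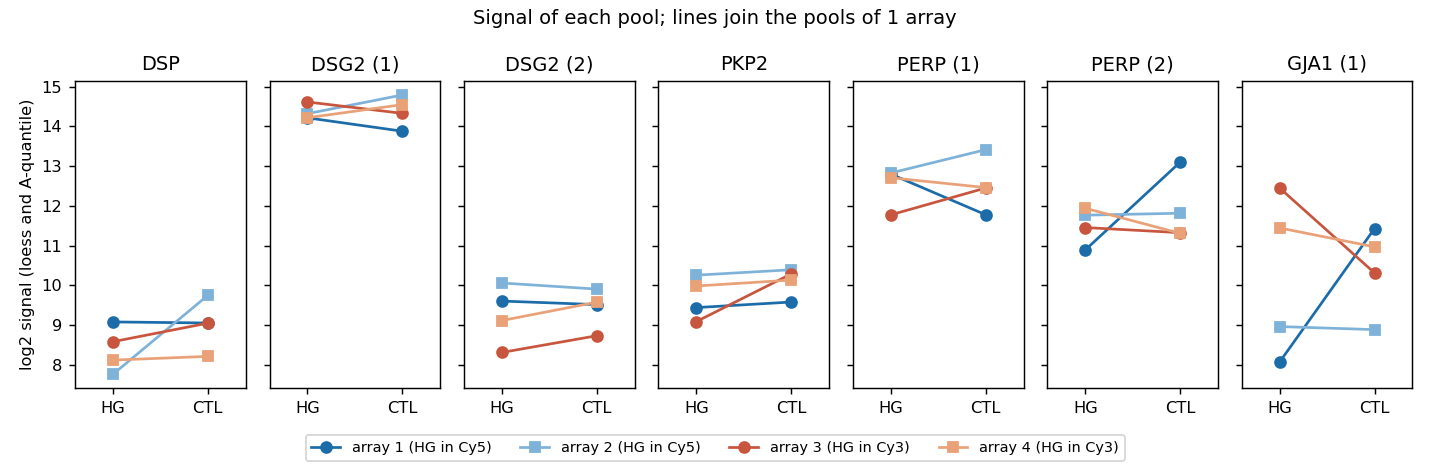
log2 signal of each pool for the 7 tested member probes, HG left and CTL right, with lines joining the 2 pools of an array (symbols and colours as by array in the legend). The lines of DSG2 (1) change by less than 0.5 log2 units, as do those of PKP2 outside array 3, whereas the lines of PERP (2) on array 1 and of GJA1 (1) on arrays 1 and 3 are steep and cross the others. Heights compare pools within a probe, not probes with each other.

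PERP encodes a tetraspan membrane protein that is needed for normal desmosomes in mouse skin and is a target of p53 and p63 there. Its 2 probes were both tested, and they disagreed. At EMBV3_39217 the log2 signals were 12.80, 12.83, 11.78 and 12.71 in the HG pools, against 11.78, 13.42, 12.45 and 12.46 in the CTL pools. HG was higher on arrays 1 and 4 and lower on arrays 2 and 3, and the groups overlapped. The ratios of 1.02, -0.59, -0.68 and 0.25 averaged 0.00 ± 0.80 (SD, n = 4), with a 95% interval of -0.81 to 0.81 (limma adjusted p = 1.000).

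At the other PERP probe, EMBV3_27580, the log2 signals were 10.89, 11.77, 11.46 and 11.94 in the HG pools, against 13.10, 11.82, 11.33 and 11.31 in the CTL pools. The CTL pool of array 1 stood above the other 7 pools, and its HG partner was the lowest of the 8. The ratios were -2.21, -0.05, 0.13 and 0.63, and their mean was -0.37 ± 1.25 (SD, n = 4; 95% interval -1.59 to 0.84; limma adjusted p = 0.969). On array 1 the 2 PERP probes thus differed by 3.23 log2 units, with opposite signs, and they had opposite signs on array 3 too. The differences on arrays 2, 3 and 4 were -0.54, -0.80 and -0.38 (EMBV3_39217 minus EMBV3_27580). Without array 1 the means were -0.34 for EMBV3_39217 and 0.24 for EMBV3_27580. Whether the probes read different transcripts of PERP was not tested, and no direction can be given for the gene.

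GJA1 had the widest spread of all the members. At its probe EMBV3_34634 the log2 signals were 8.08, 8.96, 12.45 and 11.45 in the HG pools, against 11.43, 8.89, 10.31 and 10.97 in the CTL pools. The HG pools held both the lowest and the highest of the 8 values, and the pools of array 2 were low in both groups. The ratios were -3.36, 0.08, 2.13 and 0.48 over arrays 1 to 4. Their mean was -0.17 ± 2.30 (SD, n = 4), with a 95% interval of -2.34 to 2.00 (limma adjusted p = 0.994). The SD was at the 99.5th percentile of all tested probes. The mean was 0.90 without array 1, -0.93 without array 3, and 0.28 over arrays 2 and 4 alone. With array 1 turned it was 1.51, and with array 3 turned it was -1.23.

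The dimmer GJA1 probe, EMBV3_43670, was not tested and had ratios of -0.67, 0.15, 0.55 and -0.33. It had the same sign as EMBV3_34634 on arrays 1, 2 and 3 and the opposite sign on array 4. GJA1 EMBV3_34634 was the 1 of 7 tested member probes with a ratio under -1 for array 1 together with one over 1 for array 3, which held for 3.40% of all tested probes. The same pattern was found in 5 of the 9 tested cumulus and granulosa markers and in 10 of the 12 tested stromal markers. Both marker lists were written with earlier results of these arrays known, so these counts are not independent evidence.

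The median ratios of both marker lists had the sign of GJA1 EMBV3_34634 on arrays 1 to 3 and the opposite sign on array 4. The cumulus and granulosa list holds 22 genes and the stromal list 16, and GJA1 is in neither. Over the tested genes of each list, the median ratio of the cumulus and granulosa markers was -1.92, 0.08, 1.59 and -0.24 on arrays 1 to 4, and that of the stromal markers was -2.20, 0.05, 2.15 and -0.90. The summed signal of the cumulus and granulosa markers ranged from 11741 to 63504 in the HG pools and from 16821 to 47221 in the CTL pools. That of the stromal markers ranged from 26806 to 200078 in the HG pools and from 47463 to 95349 in the CTL pools. The 4 pools with the most GJA1 signal, which were the HG pools of arrays 3 and 4 and the CTL pools of arrays 1 and 4, were also the 4 with the largest cumulus and granulosa sums. For the stromal sums 3 of these 4 pools were among the top 4. The HG pool of array 3 was highest and the HG pool of array 1 lowest for GJA1 and for both sums. The sums add linear signals, so the brightest genes weigh most. In the cumulus and granulosa list SERPINE2 averaged 14.20 (HG) and 14.39 (CTL) log2 units, and the next, TIMP1, 10.26 and 10.75. That sum is therefore largely SERPINE2, whose 4 highest pools were the same 4 as for GJA1. FN1 had the highest mean signal of the stromal list. Its ratios of -0.66, -0.46, -0.63 and -1.15 did not follow GJA1 on array 3. Nor did those of CYP19A1 in the cumulus and granulosa list, at -0.83, -0.49, -0.42 and -0.24. The pattern of arrays 1 and 3 held, as given above, for 5 of 9 cumulus and granulosa and 10 of 12 stromal markers. Of the cumulus and granulosa markers, LHCGR, AMH and FOXL2 were above background in no pool, as was MGP among the stromal markers. Others were detected: FSHR and INHA were each above background in 3 HG and 3 CTL pools. CYP11A1 and HSD3B1 were each above it in 2 HG and 3 CTL pools, and STAR and INHBA in all 4 HG and all 4 CTL pools. The part of such cells in the GJA1 values was not tested.

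**Figure D4:**
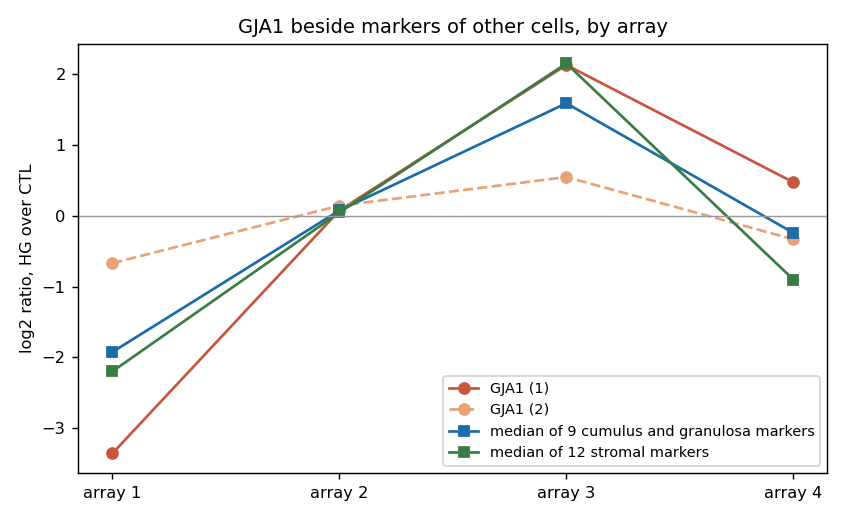
log2 ratio of HG over CTL by array for both GJA1 probes, EMBV3_34634 (solid red) and EMBV3_43670 (dashed orange), beside the median of the 9 tested cumulus and granulosa markers (blue) and of the 12 tested stromal markers (green). All 4 lines are negative on array 1, between 0.05 and 0.15 on array 2 and positive on array 3, and on array 4 GJA1 EMBV3_34634 is the only one above 0.

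GJB2 encodes connexin 26. Its probe EMBV3_23573 was above background in the HG pools of arrays 2, 3 and 4 and in the CTL pool of array 4 alone, and its ratios were 0.25, 0.27, 0.15 and -0.06. The other probe, EMBV3_04526, was above background in no pool and had ratios of -0.03, 0.13, 0.02 and -0.08. All 8 of these ratios lay within 0.3 log2 units of 0, at signals close to the background limit or under it.

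The wider junction gene set, taken as 3 lists, gave no call either. Of 36 listed genes, 29 had a probe and 11 were tested, and 0 of the 11 passed limma's adjusted threshold. An unadjusted limma p under 0.05 was found for 2 of the 11, KRT8 and KRT18, against 639 of all 8712 tested genes. Of the 11, 10 had a mean ratio below 0 and 1 had a mean above 0, with a median of -0.35, against 54.2% of all tested genes below 0 and a median of -0.02. DSG3 and GJB1, among the 10, and DSG1, the 1 above 0, had signals close to the background limit. In 3 of the 11 the HG pool was lower on all 4 arrays, against 8.12% of all tested genes. These lists were chosen with results of these arrays known and are not independent evidence of a direction.

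Of the 8 other desmosomal genes, DSG1, DSG3, PKP4 and PPL were tested. PKP4, a plakophilin relative found at desmosomes and adherens junctions, had ratios of -0.60, -0.38, -0.17 and -0.13 and a mean of -0.32 ± 0.22 (SD, n = 4; 95% interval -0.71 to 0.06; limma adjusted p = 0.757). DSG3, a desmoglein of stratified epithelia, averaged -0.28 ± 0.31. It was close to 0 on arrays 1 and 2 and lower in HG on arrays 3 and 4, at -0.57 and -0.52. DSG1, which passed the background limit on all 4 arrays in the HG pools only, averaged 0.08 ± 0.22. The raw signals of DSG3 and DSG1 were close to the background limit, at 1.00 to 1.61 and 0.972 to 1.23 times it. PPL, periplakin, which links desmosomes to intermediate filaments in stratified epithelia, ranged from -1.71 on array 2 to 1.37 on array 1. Of 21 other connexins and pannexins, 15 had a probe and only GJB1 and GJB5 were tested. GJB1 averaged -0.07 ± 0.10, at signals of 1.03 to 1.30 times the background limit. GJB5 had ratios of 0.38, 0.37, -0.60 and -0.81 at its brightest probe, positive where HG was in Cy5 and negative where it was in Cy3. Only 1 of the 2 tested GJB5 probes had a mean below 0.

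Of 7 partners of these junctions, 6 had a probe and 5 were tested, all with a mean ratio below 0. KRT8, a keratin of simple epithelia and of the filaments that desmoplakin anchors, had log2 signals of 13.07, 12.32, 12.86 and 13.82 in the HG pools, against 14.76, 15.10, 14.70 and 14.74 in the CTL pools. KRT8 was lower in HG on all 4 arrays, which held for 8.12% of all tested genes. The mean ratio of KRT8 was -1.81 ± 0.76 (SD, n = 4; 95% interval -2.59 to -1.02), yet limma's adjusted p was 0.687. KRT18, the keratin that pairs with KRT8, had ratios of 0.29, -2.73, -2.00 and -1.11. At its brightest probe CTNND1, encoding the p120 catenin of adherens junctions, was lower in HG on all 4 arrays. The mean there was -0.48 ± 0.44, and -0.26 without array 1. Only 2 of the 3 tested CTNND1 probes had a mean below 0. TJP1, the tight junction scaffold ZO-1, averaged -0.42 ± 0.46 and was higher in HG on array 4. CTNNB1, encoding beta-catenin, was lower in HG on arrays 1, 2 and 4 and reached 1.08 on array 3. Its mean was -0.47 ± 1.07, against -0.16 without array 1 and -0.98 without array 3. CDH1, encoding E-cadherin, was above background in 1 of the 8 pools and was not tested.

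**Figure D5:**
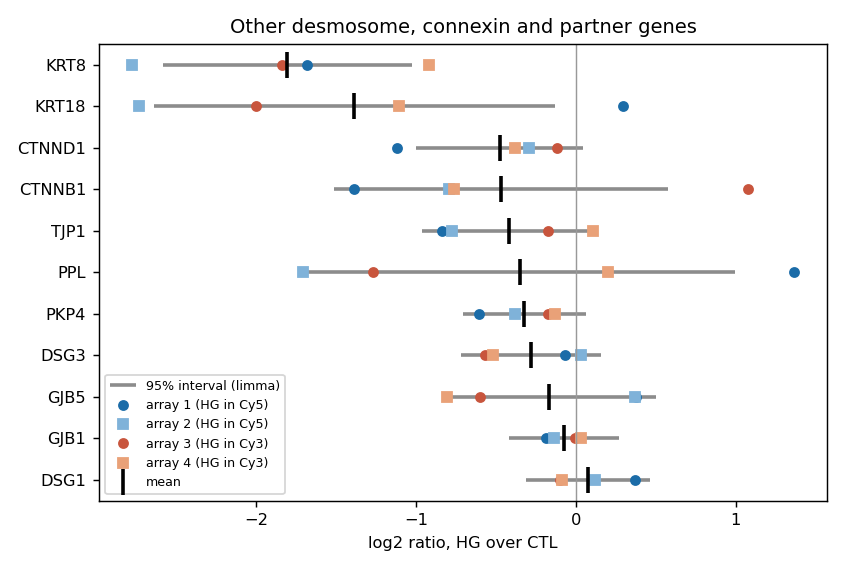
log2 ratio of HG over CTL for the 11 tested genes of the 3 wider lists, with 1 point per array, a black bar at the mean and a grey line for limma's 95% interval, not adjusted for the number of genes. KRT8 and KRT18 are the 2 genes whose intervals leave out 0, and 10 of the 11 means are below 0.

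The spread between arrays differed among the members. The SD of the 4 ratios lay at percentile 34.8 of all tested probes for DSG2 EMBV3_17891, at 47.2 for DSG2 EMBV3_26821 and at 61.4 for PKP2. PERP EMBV3_39217, DSP, PERP EMBV3_27580 and GJA1 were higher in that order, at 82.8, 88.5, 95.1 and 99.5. The ratio farthest from 0 was on array 1 for GJA1 and both PERP probes, on array 2 for DSP and DSG2 EMBV3_26821, on array 3 for PKP2 and on array 4 for DSG2 EMBV3_17891. The genes whose 4 ratios were most like those of a member were found by the root mean square difference over the 4 arrays among 8707 other genes. For DSP the nearest were NCOA1, at 0.231, and KLHL41, at 0.235. For DSG2 they were INTS8, at 0.0757, and CPNE3, at 0.0974. For PKP2 they were HOXB4, at 0.0604, and RAD17, at 0.0823, which shared the single low value on array 3. For PERP EMBV3_39217 they were ZNF45, at 0.0551, and MIR2404-2, at 0.0965. For GJA1 they were C1QTNF1, at 0.329, and GATA4, at 0.345, both below -3 on array 1 and above 2 on array 3. With 4 arrays and this many genes, close matches carry no test.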

How the data were processed

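Total RNA of the pools was extracted, amplified with T7 RNA polymerase and labelled with Cy3 or Cy5 dyes, per the labels' protocols. The deposited scanner files hold spot intensity on a linear scale for both channels, not yet normalized, with foreground, local background and flags, per the file headers. The authors' deposited table holds log2 ratios of Cy5 over Cy3; the submitters' processing notes name limma, and the steps are not given in the sources used here. Its column medians were -0.01 to 0.02, and it correlated with the ratios computed here at 0.984 to 0.996, which fixed its direction; it served as an alternative.

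Foreground means were corrected with normexp (offset 50) on the median local background and normalized by loess within arrays with limma 3.58.1 in R 4.3.3, with control spots at weight 0 and ignored spots (29 to 151 per array) set to missing and left out of the 153 negative control spots (0 to 2 per array). Pool signals are log2 values after loess and A-quantile normalization. Ratios were tested against 0 with lmFit and eBayes, and p-values were adjusted over all 19645 tested probes. The number of arrays limits the precision. Each gene was represented by its brightest tested probe. Of 43794 probes, 21790 had 1 gene symbol in the platform annotation, 22004 had none and 0 had several; 982 old symbols were updated through RefSeq. The fit was also run on simulated log2 ratios with known changes, but the share of them recovered is not given here. The rule for named genes was all members, the tested genes of the 3 lists, and the 2 genes nearest to each member. Beside these, marker genes are named for their background calls, signals or ratios. DSC1 and CDH1 are named as an untested neighbour and partner. All of these additions were chosen after their values were seen. The members and lists were chosen with earlier results of these data known. Alternatives covered the arrays used, dye, background, normalization and filters. Gene order came from the RefSeq gene table (ARS-UCD2.0), and probe and protein sequences were not used here.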

Additional observations from a re-analysis of the deposited data

Results flagged for a closer look

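The PKP2 ratio of array 3 was -1.20, far from those of the other 3 arrays, which lay between -0.15 and -0.14. It was the 1 of 19 results examined in which a single array stood apart by Dixon's test at the 95% level, and chance marks about 1 in 20 such groups. Both spots were above background and neither was ignored or saturated.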

How the results depend on the processing

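All 20 settings called 0 probes, with a smallest adjusted p of 0.0598 for arrays 2 and 4 alone, while the unadjusted count was 727 without array 2 and 744 without array 4, against 1401. Median centring moved the unadjusted split to 345 higher and 1038 lower. The member median ran from -0.38 without array 4 to -0.098 with scaling between arrays. The number of member genes below 0 was 7, of 9, with no filter on dim probes. DSP, PKP4, TJP1, KRT8 and KRT18 kept a mean below 0 in all settings, but with array 1 turned TJP1 was at -0.00073 and PKP4 at -0.019, and with array 3 turned KRT18 was at -0.39 and KRT8 at -0.89. Leaving out 1 array gave -0.17 to 0.10 for DSG2 EMBV3_26821, -0.34 to 0.23 for PERP EMBV3_39217, -0.71 to 0.24 for PERP EMBV3_27580, -0.93 to 0.90 for GJA1, -0.022 to 0.13 for DSG1, -0.93 to 0.10 for PPL and -0.34 to 0.050 for GJB5. With array 3 turned, DSG2 EMBV3_17891 gave 0.050, PKP2 0.19, DSG3 0.0052, PPL 0.28 and GJB5 0.13. With array 1 turned, PERP EMBV3_39217 gave -0.51, PERP EMBV3_27580 0.73, GJA1 1.51, DSG1 -0.11, GJB1 0.021, CTNNB1 0.23 and CTNND1 0.081. Arrays 2 and 4 alone gave -0.17 and 0.29 for the PERP probes in the same order and 0.28 for GJA1. PERP EMBV3_39217, at 0.00, turned to -0.00017 without background correction, -0.011 with median pixels, -0.047 with median centring and -0.022 with scaling between arrays; DSG1 gave -0.065 with median pixels. The causes were not tested. Each array pairs 1 HG with 1 CTL pool, so the ratios already hold the pairing. A threshold that kept ignored negative control spots and a mean local background were added after seeing the data. That threshold left 15591 tested probes, against 19645, so the tested set depends on a few control spots. The 7 tested member probes stayed among them. DSC2, JUP, PKP3 and GJB2 were limited by signal over background.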
